A study of Mus musculus with 17 samples.

Results

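Described here are 9 genes in mouse embryonic stem (ES) cells: the 2-cell-like genes Zscan4c, Zscan4d, Zscan4f, Tcstv1, Tcstv3, Duxf3 and Zfp352, and the neighbouring pair Pramel6 and Pramel7. They are 9 of 53588 gene symbols in the table and were taken by name. Because near-identical copies share reads, each family was also summed over the copies annotated under its symbol, which brings the genes described to 15. The libraries come from 5 lines derived from MC1 ES cells (129S6/SvEvTac), each with a single Fox transcription factor, tagged His6-FLAG at its C terminus, at Rosa26 under a promoter held off by doxycycline (Dox), together with a puromycin resistance gene. The factor gives each line its name: iFoxA1, iFoxC1, iFoxG1, iFoxL2 or iFoxP3. The 24 h groups had been without Dox for 24 h in differentiation medium with 10% fetal bovine serum, after washes 3 h apart. The labels list no leukemia inhibitory factor (LIF) for that medium. The 0 h groups were kept in ES medium with 0.2 µg/ml Dox, 15% serum, puromycin and 1000 U/ml LIF. iFoxA1 had 3 libraries at 24 h and 2 at 0 h, and each other line had 2 at 24 h and 1 at 0 h, 17 in all. All groups carry a transgene. Medium, serum, listed LIF and transgene therefore changed together, and their parts in a difference between 24 h and 0 h cannot be told apart.

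The 2-cell-like genes are transcribed in the cleavage embryo when the mouse zygotic genome is switched on, and again in a small, changing fraction of cultured ES cells. DUX, the double homeobox factor encoded by Duxf3, activates many of them. ZSCAN4 proteins, which carry a SCAN domain and zinc fingers, take part in telomere lengthening and genome stability in mouse ES cells. Tcstv1 and Tcstv3 are named for variable expression at the 2-cell stage, and Zfp352 encodes a zinc finger protein of the early embryo. Pramel6 and Pramel7 encode leucine-rich repeat proteins of the PRAME family that belong to the naive state of the inner cell mass. In mouse ES cells LIF and STAT3 sustain PRAMEL7, which directs UHRF1, a factor that maintains DNA methylation, to degradation through a CUL2 ubiquitin ligase.

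The copies are shown first, since their sequences set how far a value can be given to 1 gene. In mm10 the 9 Zscan4 copies lie within 820 kb of chromosome 7 (10794242 to 11614112), and the coding sequences of 8 of them are 96.6 to 99.7% identical (Zscan4a is annotated as a pseudogene). Each stretch of 60 coding bases shown is the ungapped one with the most differences, so it overstates how far the copies differ. That of the 3 listed copies (positions 1032 to 1091, counted from the start codon) separates them at 6 positions, in capitals.
Zscan4c: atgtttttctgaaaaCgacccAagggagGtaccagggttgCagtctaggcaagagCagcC
Zscan4d: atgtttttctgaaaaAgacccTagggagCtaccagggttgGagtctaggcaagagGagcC
Zscan4f: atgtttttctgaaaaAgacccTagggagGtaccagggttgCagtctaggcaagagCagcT
Tcstv1 (chromosome 13, 119893388 to 119894785, minus strand) and Tcstv3 (120316878 to 120318178, plus strand) are 94.7% identical in the coding sequence. They differ at 9 of 60 bases in the stretch from 394 to 453, chosen in the same way, and at 27 of all 510 aligned bases.
Tcstv1: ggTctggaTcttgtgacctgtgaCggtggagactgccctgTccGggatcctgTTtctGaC
Tcstv3: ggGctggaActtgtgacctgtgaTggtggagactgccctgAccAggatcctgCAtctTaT
Pramel7 (chromosome 2, 87489087 to 87497093, minus strand) and Pramel6 (87506565 to 87510872, plus strand) point away from each other across 9.47 kb. Their coding sequences are 57.2% identical. In the stretch chosen in the same way, from position 335 in Pramel6 and position 332 in Pramel7, 37 of 60 bases differ.
Pramel6: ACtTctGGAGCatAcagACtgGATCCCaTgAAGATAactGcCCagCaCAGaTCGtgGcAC
Pramel7: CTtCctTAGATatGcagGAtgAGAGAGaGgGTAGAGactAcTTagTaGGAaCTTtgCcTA

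The share of a gene's distinct 31-base words found in no other annotated transcript was 99.4% for Pramel6 and 91.4% for Pramel7, so these 2 genes could be counted apart. It was 78.5% for Zfp352 (chromosome 4, 90218820 to 90225702), 71.4% for Tcstv1, 49.0% for Tcstv3 and 39.7% for Duxf3 (chromosome 10, 58229979 to 58232675). Among the listed Zscan4 copies it was 35.0% for Zscan4d, 8.46% for Zscan4c and 8.28% for Zscan4f, while 85.6 to 92.3% of the words of each copy were found in this family alone. The Zscan4 sum is therefore the better determined value, and the level of a single Zscan4 copy is an estimate of how shared reads were split. For Tcstv, 72.8% of the words of Tcstv1 and 51.7% of those of Tcstv3 were found in the family alone. Each shared more words with Gm21818 than with any other gene outside the family. The Tcstv sum may thus include reads of genes outside it.

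**Figure D1:**
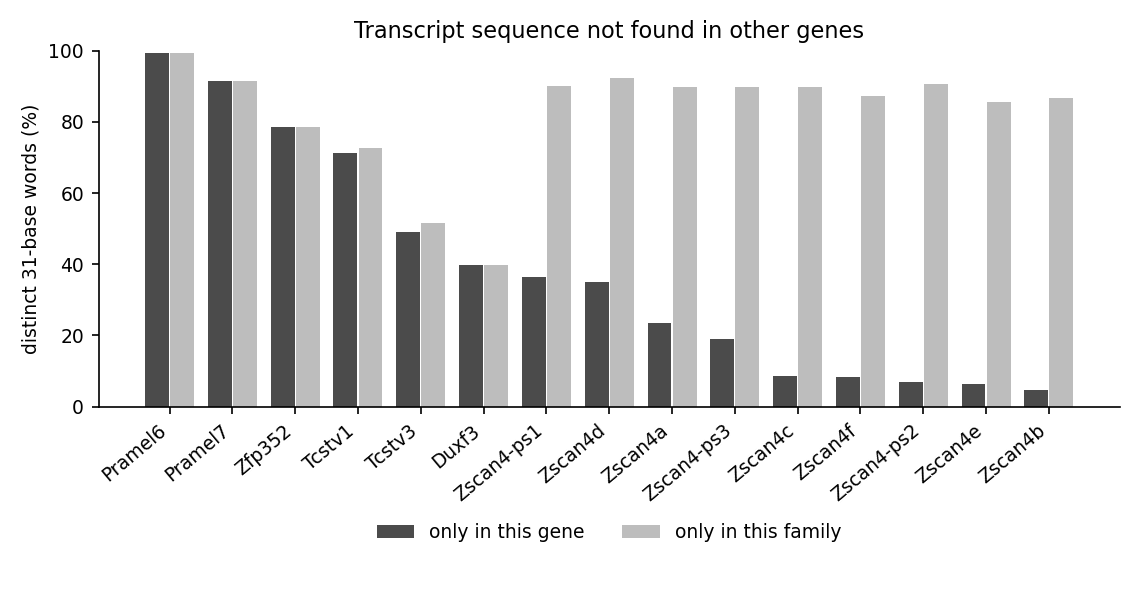
Share of each gene's distinct 31-base words, in percent, found in that gene alone and in its family alone. Pramel6 stands at 99.4% and Zscan4c and Zscan4f at 8.46% and 8.28% for the single gene, while every Zscan4 copy exceeds 85% for the family.

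The 250 bases upstream of the RefSeq starts (GRCm38.p6) are given for Pramel7, Pramel6 and Duxf3, since LIF is listed for the 0 h medium alone and the transgenes encode forkhead factors. The Pramel7 window (2:87492419-87492668, minus strand) lies within the gene bounds given above, and the bases upstream of those bounds were not searched. Capitals mark its only forkhead match.
Pramel7: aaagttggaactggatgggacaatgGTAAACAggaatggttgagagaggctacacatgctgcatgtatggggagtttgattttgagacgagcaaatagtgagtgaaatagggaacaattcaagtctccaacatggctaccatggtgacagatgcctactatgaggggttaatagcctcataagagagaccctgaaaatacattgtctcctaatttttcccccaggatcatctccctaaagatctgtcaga
Pramel6 (2:87506315-87506564, plus strand) held none of the motifs searched, and no base is capitalised.
Pramel6: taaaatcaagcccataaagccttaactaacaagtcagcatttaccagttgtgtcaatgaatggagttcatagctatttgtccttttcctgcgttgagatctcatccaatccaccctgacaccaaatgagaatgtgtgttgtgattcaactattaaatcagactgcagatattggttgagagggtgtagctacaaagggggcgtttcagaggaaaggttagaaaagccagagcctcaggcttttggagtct
In Duxf3 (10:58233090-58233339, minus strand) capitals mark the only STAT match.
Duxf3: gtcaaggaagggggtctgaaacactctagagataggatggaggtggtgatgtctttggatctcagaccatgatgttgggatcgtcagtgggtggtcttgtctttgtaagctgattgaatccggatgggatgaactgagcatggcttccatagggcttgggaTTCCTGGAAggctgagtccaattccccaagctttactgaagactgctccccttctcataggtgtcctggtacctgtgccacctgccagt

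Motifs were searched on both strands in windows of 300 bases (250 before and 50 after the start) for the 8 family genes in the RefSeq table, which holds 7 of the 9 listed members. TGTTTAC, the forkhead core, was found in 1 of 8 windows (Pramel7, at -225 to -219 on the minus strand of the gene), against 3.55% of 27025 promoters. TTCNNNGAA, the STAT half-site pair, was found in 1 of 8 (Duxf3, at -89 to -81), against 8.47% of all promoters. The DUX motif, TGATT and AATCA with 1 base between them, was in none of the 8 and in 0.041% of all promoters. The upstream sequences of Zscan4c and Zscan4f were 99.6% identical, and those of Pramel6 and Pramel7 53.3%.

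The libraries held 17.7 to 37.2 M estimated counts. Transgene level was checked first. At 24 h it was 76.7 to 289 CPM (counts scaled to a library total of 1 M) in 10 of 11 libraries and 11.5 CPM in iFoxL2 replicate 2, against 0.645 to 3.05 CPM at 0 h. The lowest of the 3 iFoxA1 libraries at 24 h was replicate 3, at 76.7 CPM. In these 2 libraries 10 ES cell marker genes summed to 6197 CPM (iFoxA1 replicate 3) and 6063 CPM (iFoxL2 replicate 2), inside the 0 h range of 5220 to 6386 CPM. They summed to 2717 to 4004 CPM in the 9 other 24 h libraries. Both also belong to a second, deeper set of 5 libraries, all at 24 h, with 32.9 to 37.2 M counts each. Results for the members and their families that rest on those 2 libraries are given with and without them. Oocyte markers, which could accompany 2-cell-like transcripts in a mixed culture, summed to 5.75 to 18.1 CPM at 24 h and 15.4 to 27.2 CPM at 0 h over 6 genes, with Oosp1 at 0 throughout. Germ cell markers (5 genes) summed to 61.3 to 123 CPM at 24 h and 66.3 to 158 CPM at 0 h. Their part in the results below was not tested.

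Pramel6 and Pramel7 fell between 0 h and 24 h, and iFoxC1 stood apart from the other lines. Pramel6 had 0.0305 to 2.28 CPM in the 11 libraries at 24 h, with a median of 0.305 CPM, against 4.86 to 10.1 CPM and a median of 7.27 CPM in the 6 libraries at 0 h, so the times did not overlap. Over the 5 lines, each with equal weight, its log2 change was -4.62 ± 0.22 (SE), with an adjusted p of 1.54e-06. Pramel7 had 0.061 to 10.4 CPM at 24 h, with a median of 0.827 CPM, against 3.37 to 7.96 CPM and a median of 6.77 CPM at 0 h. Its average log2 change was -2.68 ± 0.32, with an adjusted p of 0.000243. All adjusted p-values are from edgeR's quasi-likelihood test with Benjamini-Hochberg adjustment over all genes tested, at a threshold of 0.05. In bulk RNA, fewer cells with a transcript and less of it per cell cannot be told apart. Mitochondrially encoded protein genes held 1.80 to 2.76% of counts at 24 h and 2.60 to 3.71% at 0 h, and their part in the result was not tested.

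Of the 9 members, 4 passed in the average change, 2 higher (Tcstv1 and Duxf3) and 2 lower (Pramel6 and Pramel7). Over all 19796 genes 37.9% passed, 21.7% higher and 16.1% lower, so the count of members is near the background. The median log2 change was 0.79 over the members and 0.04 over all genes. Of the 5 family values, 2 passed (the Pramel pair, lower, and Duxf3, higher), where 37.8% of the table with family sums passed.

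**Figure D2:**
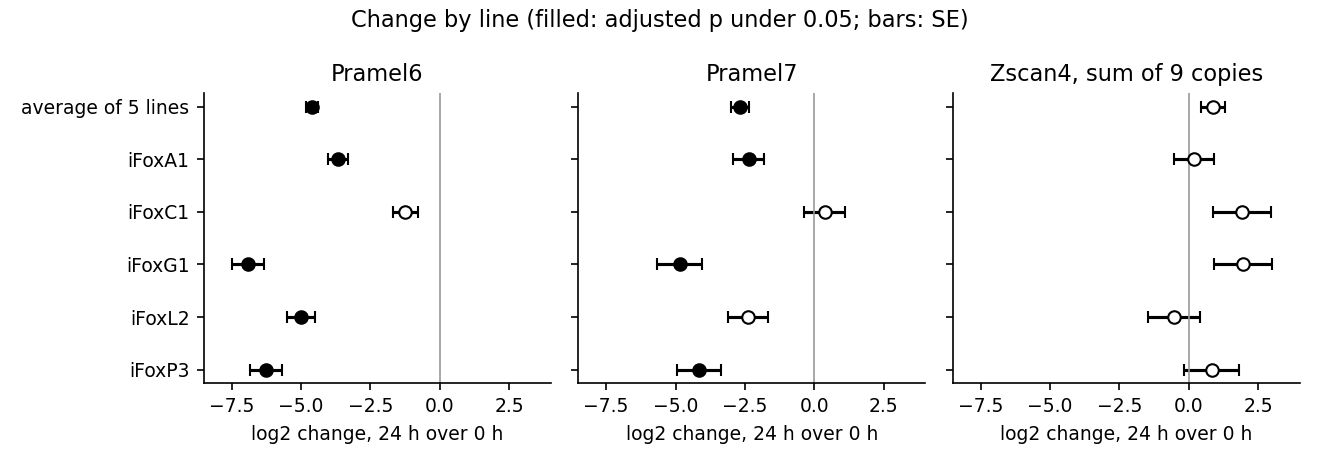
Log2 change (24 h minus 0 h) of Pramel6, Pramel7 and the Zscan4 sum, in each line and averaged over the 5 lines. Bars are 1 SE, and points are filled where the adjusted p was under 0.05. Pramel6 lies between -6.91 and -1.24 in the 5 lines, and iFoxC1 is the line nearest to 0 for both Pramel genes.

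Pramel6 by line gives the clearest order. The iFoxG1 libraries had 0.0503 and 0.058 CPM at 24 h, against 7.24 CPM at 0 h. In iFoxP3 there were 0.0967 and 0.0305 CPM at 24 h, against 4.86 CPM at 0 h. Both lines were thus close to no reads at 24 h, with 3 counts over their 24 h libraries, against 141 and 98 counts in the single 0 h library of iFoxG1 and iFoxP3. The ratios of 24 h to 0 h, with counts and library totals pooled over the libraries of each time, were 0.00763 in iFoxG1 (95% counting interval 0.00155 to 0.0227) and 0.0115 in iFoxP3 (0.00234 to 0.0347). These intervals cover counting error only. For iFoxL2 the values were 0.305 and 0.157 CPM at 24 h, against 7.30 CPM at 0 h. The iFoxA1 libraries had 0.892, 0.966 and 0.532 CPM at 24 h (0.797 ± 0.232, SD, n = 3), against 10.1 and 10.0 CPM at 0 h (10.1 ± 0.0539, n = 2). iFoxC1 kept the most, with 2.28 and 2.09 CPM at 24 h (2.19 ± 0.132, n = 2), against 5.16 CPM at 0 h.

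Within lines the edgeR quasi-likelihood test called Pramel6 lower in 4 of 5. The log2 change was -6.91 ± 0.57 (adjusted p 0.000421) in iFoxG1, -6.26 ± 0.57 (0.00111) in iFoxP3, -4.999 ± 0.50 (0.00169) in iFoxL2 and -3.66 ± 0.37 (0.000411) in iFoxA1. In iFoxC1 it was -1.24 ± 0.45, with an adjusted p of 0.119. Without the 2 libraries that stand apart, iFoxC1 passed as well, at -1.27 with an adjusted p of 0.00981. The 4 calls passed under every alternative run.

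For Pramel7, iFoxC1 was again the highest at 24 h, and iFoxG1 and iFoxP3 the lowest. The iFoxP3 libraries had 0.338 and 0.061 CPM at 24 h, against 3.37 CPM at 0 h, and the iFoxG1 libraries 0.101 and 0.203 CPM, against 4.72 CPM. iFoxL2 had 1.83 and 0.783 CPM at 24 h, against 6.76 CPM at 0 h. iFoxA1 had 2.03, 1.396 and 0.827 CPM at 24 h, against 7.79 and 6.77 CPM at 0 h. At 24 h iFoxG1 overlapped with iFoxP3 and iFoxL2 with iFoxA1. In iFoxC1 Pramel7 did not drop below its 0 h level, with 10.2 and 10.4 CPM at 24 h (558 counts), against 7.96 CPM at 0 h (168 counts).

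The test called Pramel7 lower in iFoxG1 (log2 change -4.85 ± 0.80, edgeR adjusted p 0.0101), iFoxP3 (-4.16 ± 0.80, 0.0201) and iFoxA1 (-2.37 ± 0.55, 0.0244). The change of -2.38 ± 0.71 in iFoxL2 had an adjusted p of 0.0994, and passed with DESeq2 (0.0195), with the library set as a term (0.0382) and with the first library set only (0.00114). That of 0.37 ± 0.73 in iFoxC1 had an adjusted p of 0.81. The calls in iFoxG1, iFoxP3 and iFoxA1 rest on few libraries. They were lost without either 24 h library of iFoxG1 (adjusted p 0.0725 and 0.0695), without iFoxP3 24 h replicate 2 (0.0883), and without either 0 h library of iFoxA1 (0.15 and 0.111) or its 24 h replicate 2 (0.0767). With limma on log2(TPM + 1) the adjusted p was 0.134 in iFoxG1 and 0.258 in iFoxP3.

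**Figure D3:**
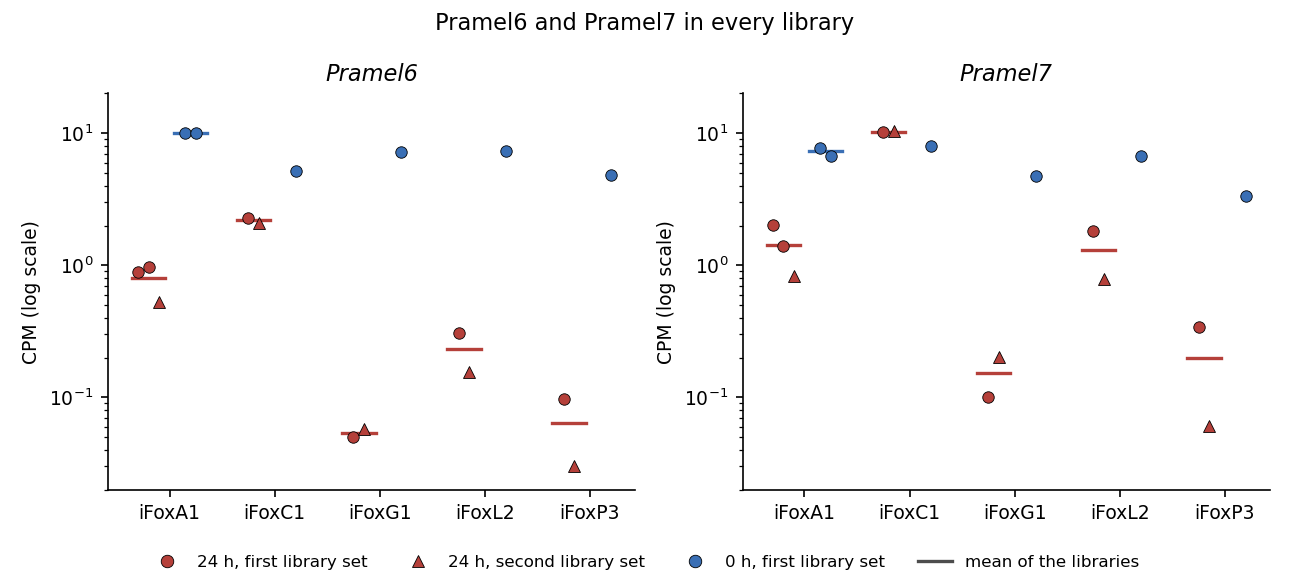
CPM of Pramel6 and Pramel7 on a log axis in every library, 24 h left of 0 h in each line, with circles for the first library set and triangles for the second, deeper one. In iFoxC1 the 24 h points of Pramel7 (10.2 and 10.4 CPM) lie above the 0 h point (7.96 CPM), and in the other lines every 24 h point lies below 0 h.

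The line-by-line calls were 2 of 9 members lower in iFoxA1 (10.8% of all genes passed, 4.14% lower), 0 of 9 in iFoxC1 (9.73% passed, 3.48% lower), 2 lower in iFoxG1 (5.64% passed, 2.3% lower), 1 lower in iFoxL2 (4.23% passed, 1.93% lower) and 2 lower in iFoxP3 (6.05% passed, 2.79% lower). All 7 calls were of Pramel6 or Pramel7. In iFoxC1, where edgeR called no member, Pramel6 alone had an unadjusted p under 0.05, and DESeq2 also called 0.

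Whether the 5 changes differed was tested directly. Pramel6 passed (adjusted p 0.0322, edgeR F test) and was the 1 member of 9 to do so, where 1% of all genes passed. Pramel7 had an adjusted p of 0.181 and the sum of the pair 0.109. The change of iFoxC1 minus the mean change of the 4 other lines was 4.22 ± 0.61 for Pramel6 on the log2 scale (adjusted p 0.0205), 3.81 ± 0.93 for Pramel7 (0.0914) and 4.18 ± 0.85 for the sum (0.0583). There 1 of 9 members passed, higher, against 1.08% of all genes (0.672% higher). The Pramel6 difference was lost without any of 11 of the 17 libraries (adjusted p 0.0529 to 0.154), and its iFoxC1 call without any of 5 (0.0531 to 0.0995). With limma on log2(TPM + 1), both were lost, at 0.216 for the difference and 1.87 (0.115) for iFoxC1. With the 2 libraries that stand apart left out, Pramel7 passed for iFoxC1, at 3.58 with an adjusted p of 0.0128.

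The levels at 24 h, where each line had at least 2 libraries, were compared as well. Pramel6 (adjusted p 0.000455) and Pramel7 (0.00156) differed among the lines at 24 h, and were the 2 of 9 members to pass, where 13.1% of all genes passed. Against the mean of the 4 other lines at 24 h, iFoxC1 was higher by 3.76 ± 0.30 for Pramel6 (adjusted p 0.000364) and by 4.40 ± 0.42 for Pramel7 (0.000778) on the log2 scale. In that comparison 3.69% of all genes passed, 2.41% higher. These calls for iFoxC1 passed under every alternative run. The ES cell marker sums of its 24 h libraries, 3831 and 3972 CPM, lay within the range of the other lines at 24 h. Their oocyte marker sums, 17.2 and 18.1 CPM, were above the 5.75 to 11.6 CPM of the other 24 h libraries, and the part of those transcripts in this result was not tested.

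iFoxG1 was at the other end, at -2.73 ± 0.50 for Pramel6 (edgeR adjusted p 0.0209) and -3.06 ± 0.66 for Pramel7 (0.0438) against the other lines, where 2.74% of genes passed, 1.24% lower. Both calls were lost without either iFoxG1 library at 24 h (adjusted p 0.217 to 0.385). The Pramel6 call was also lost without iFoxP3 24 h replicate 1 (0.122), and the Pramel7 call without any of 7 other libraries (0.064 to 0.0885). iFoxA1 was higher for Pramel6 (1.92 ± 0.30, adjusted p 0.00242), where 15.1% passed, 8.88% higher. These calls for iFoxG1 and iFoxA1 were also lost with limma on log2(TPM + 1), at adjusted p-values of 0.184 to 0.37. iFoxL2 and iFoxP3 had 0 of 9 members past the threshold in this edgeR comparison, where 1.64% and 0.561% of all genes passed. At an unadjusted p under 0.05 there were 0 members for iFoxL2 and 2 for iFoxP3, and DESeq2 called 0 for iFoxL2 and 1 (Pramel7) for iFoxP3. At 0 h, no member differed among the lines (0 of 9 by edgeR, at adjusted and unadjusted p under 0.05, and 0 by DESeq2), where 0.495% of all genes passed. Each of 4 lines had 1 library there.

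Pramel6 also held a smaller part of the pair at 24 h. Its share of the pair's counts was 14.2 to 41.2% (median 22.2%) at 24 h, against 39.4 to 60.6% (median 57.7%) at 0 h. In iFoxC1 it was 18.3% and 16.7% at 24 h, against 39.4% at 0 h. The summed pair in iFoxC1 was thereby level, at 12.4 and 12.5 CPM against 13.1 CPM, while the balance between its genes had shifted. The 24 h shares in iFoxG1 and iFoxP3 rest on 3 to 9.39 estimated counts of the pair per library. Per length, Pramel6 and Pramel7 had similar median levels at 0 h, at 8.99 and 9.36 TPM, and at 24 h the medians were 0.469 and 0.832 TPM. Both 24 h medians are the values of iFoxP3 replicate 1, where Pramel6 had 2 counts, assigned to a form of 427 bases. Neither gene differed between the library sets beyond the threshold (second minus first, log2 -0.55 ± 0.23, adjusted p 0.161, for Pramel6 and -0.70 ± 0.32, 0.134, for Pramel7).

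The Zscan4 family lay above its 0 h level in 3 lines at 24 h, below it in iFoxL2 and on both sides of it in iFoxA1, and 1 library decided its summary. The family sum in iFoxC1 was 37.8 and 53.2 CPM at 24 h, against 12.1 CPM at 0 h. In iFoxG1 it was 38.9 and 50.3 CPM at 24 h, against 11.6 CPM at 0 h, and in iFoxP3 31.5 and 34.6 CPM, against 18.6 CPM. In these 3 lines both 24 h libraries lay above 0 h, and the ratio of 24 h to 0 h, taken on counts and library totals pooled over the libraries of each time, was 3.93 in iFoxC1, 3.98 in iFoxG1 and 1.79 in iFoxP3. The iFoxL2 libraries had 53.6 and 33.8 CPM at 24 h, against 63.3 CPM at 0 h, the highest of the 0 h libraries. In iFoxA1, replicates 1 and 2 had 10.3 and 12.0 CPM at 24 h and replicate 3 had 72.3 CPM, against 26.9 and 28.4 CPM at 0 h, so its 24 h libraries lay on both sides of 0 h. Replicate 3 was 6.49 times the mean of the 2 others, and it is the iFoxA1 library with the lowest Foxa1 level and with ES cell markers in the 0 h range.

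With all libraries the Zscan4 sum did not pass. The average log2 change was 0.87 ± 0.42 (edgeR adjusted p 0.135), the changes within lines had adjusted p-values of 0.293 to 0.913, and their difference among lines one of 0.764. Without iFoxA1 24 h replicate 3 the average was 0.57 (adjusted p 0.00959), and the iFoxA1 change was -1.31 (0.0118), against 0.19 ± 0.71 (0.913) with it. Without both libraries that stand apart, Zscan4 fell in iFoxA1 (-1.29, adjusted p 0.00225) and rose in iFoxC1 (1.86, 0.00145), iFoxG1 (1.95, 0.00168) and iFoxP3 (0.82, 0.0377). The 5 changes then differed (adjusted p 0.00199), as did the lines at 24 h (0.000993, against 0.983 with all libraries). This alternative was chosen after the values had been seen. At 0 h the family did not differ beyond the threshold among lines (adjusted p 0.697), with 63.3 CPM in the iFoxL2 library and 11.6 CPM in that of iFoxG1.

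**Figure D4:**
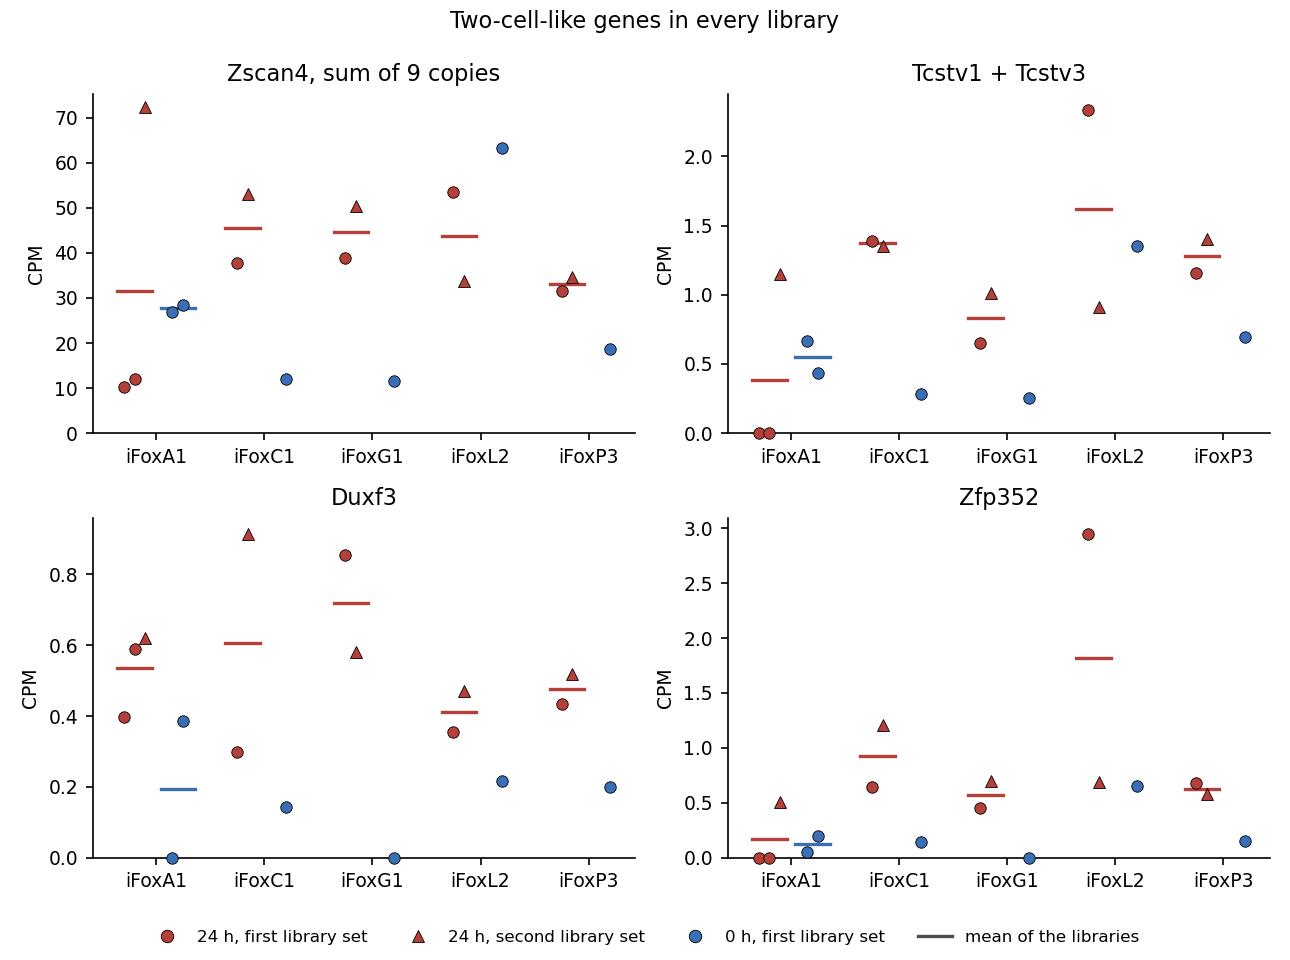
CPM of the Zscan4 sum, the Tcstv sum, Duxf3 and Zfp352 in every library, 24 h left of 0 h in each line, with circles for the first library set and triangles for the second. In iFoxA1 the 24 h triangle of Zscan4 (72.3 CPM) lies apart from the 24 h circles (10.3 and 12.0 CPM).

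Zscan4f had the most estimated counts of the 9 copies in 16 of 17 libraries. Its share of the family had a median of 34.3% at 24 h (17.6 to 41.4%) and 31.5% at 0 h (23.3 to 42.2%). Zscan4c was next, at medians of 14.7% at 24 h and 16.9% at 0 h. Zscan4e (11.8% at 24 h and 10.7% at 0 h) and Zscan4-ps2 (10.4% and 10.8%) lay close together, and Zscan4d held 7.90% at 24 h and 8.91% at 0 h. The 3 listed copies together made up 47.9 to 70.6% of the family's counts. Zscan4f itself had 1.83, 4.13 and 24.8 CPM in iFoxA1 at 24 h, against 8.99 and 6.63 CPM at 0 h, which is the pattern of the sum. Zscan4c (average log2 change 0.65 ± 0.36, adjusted p 0.187), Zscan4d (0.69 ± 0.45, 0.259) and Zscan4f (0.97 ± 0.51, 0.16) did not pass. Of the 6 other copies only Zscan4-ps3 passed (1.26 ± 0.43, 0.0456). Since 18.9% of its 31-base words are its own, that call may include reads of other copies.

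**Figure D5:**
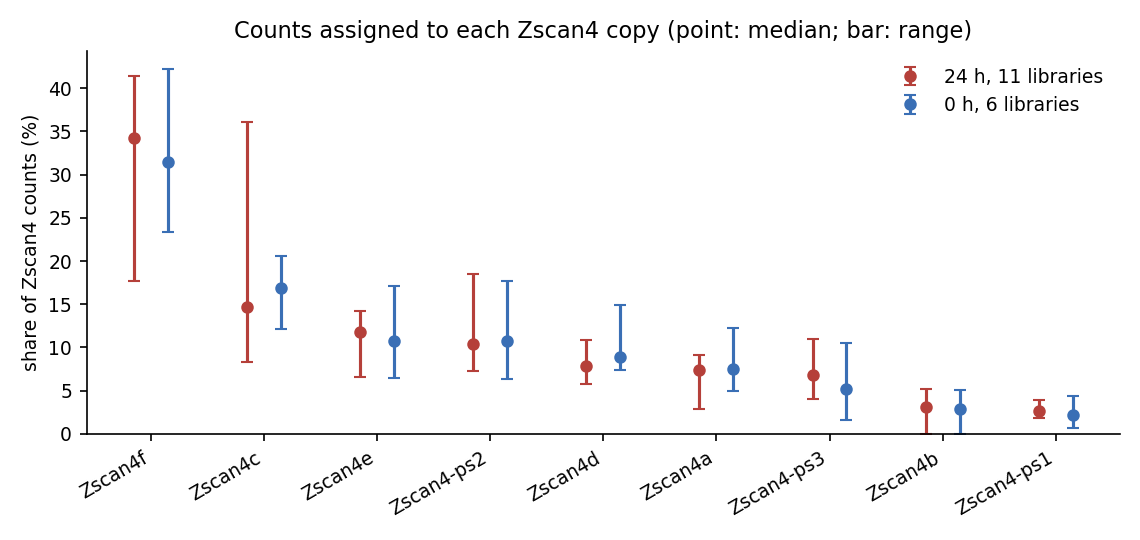
Share of the Zscan4 family's estimated counts held by each of the 9 copies, in percent. Points are medians and bars are ranges, over 11 libraries at 24 h and, to their right, 6 libraries at 0 h. Zscan4f has the highest median at both times, 34.3% at 24 h and 31.5% at 0 h.

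Tcstv1 and Tcstv3 were low, and their sum did not pass. The Tcstv sum was 0 CPM in iFoxA1 replicates 1 and 2 at 24 h and 1.15 CPM in replicate 3, against 0.669 and 0.435 CPM at 0 h. It was 1.39 and 1.36 CPM in iFoxC1 at 24 h, against 0.284 CPM at 0 h, and 0.654 and 1.02 CPM in iFoxG1, against 0.257 CPM. In iFoxL2 it was 2.34 and 0.908 CPM at 24 h, against 1.35 CPM, and in iFoxP3 1.16 and 1.403 CPM, against 0.694 CPM. As for Zscan4, iFoxA1 replicate 3 lay above both 0 h libraries of its line and the other replicates below them. The average log2 change of the sum was 0.93 ± 0.76 (edgeR adjusted p 0.367), and without that replicate it was -0.33 (0.408). The iFoxA1 change, with an adjusted p of 0.896 over all libraries, passed without that replicate (lower, 0.00684) and without both libraries that stand apart (0.00138), where its remaining 24 h libraries are at 0 and the fitted fold is no bound. Without both, the iFoxC1 change (2.20, 0.0189), the difference among the changes (0.007) and the lines at 24 h (0.0016, against 0.775 with all libraries) passed too.

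Tcstv1 alone passed in the average change (log2 2.99 ± 0.92, adjusted p 0.0324), from 0 to 22.8 estimated counts per library. It had 0.446 and 0.678 CPM in iFoxC1 at 24 h, against 0.190 CPM at 0 h, a pooled-count ratio of 3.12, and 0.762 and 0.595 CPM in iFoxL2, against 0.378 CPM, a ratio of 1.74. In iFoxG1 the values were 0.352 and 0.464 CPM, against 0.103 CPM, a ratio of 4.12 with a counting interval of 1.02 to 36.1. In iFoxP3 they were 0.193 and 0.580 CPM, against 0 CPM, so Tcstv1 was at least 2.89-fold higher when 3 counts are set as the floor over the group. In iFoxA1 it was at 0 in replicates 1 and 2 and at 0.266 CPM in replicate 3 at 24 h, and at 0 in both libraries at 0 h. The call was lost when any of 7 libraries was left out, among them iFoxA1 24 h replicate 3 (2.11, adjusted p 1.00) and the iFoxP3 library at 0 h (2.18, 0.0981), and with the library set as a term (0.0572), and the fitted fold depends on how counts of 0 are treated. Tcstv3 did not pass (0.79 ± 0.81, 0.48).

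Duxf3 was higher in every 24 h library than in any 0 h library of the same line. Its values were 0.397, 0.591 and 0.620 CPM in iFoxA1 at 24 h, against 0 and 0.387 CPM at 0 h. In iFoxC1 they were 0.297 and 0.913 CPM, against 0.142 CPM, and in iFoxG1 0.855 and 0.580 CPM, against 0 CPM. In iFoxL2 they were 0.356 and 0.470 CPM, against 0.216 CPM, and in iFoxP3 0.435 and 0.519 CPM, against 0.198 CPM. All libraries at 24 h were therefore above their line at 0 h in all 5 lines, an arrangement that 9.71% of all genes showed. These levels are 5.7 to 31.4 estimated counts at 24 h, against 0 to 8.4 at 0 h. iFoxA1 24 h replicate 3, which set the Zscan4 value apart, did not do so for Duxf3.

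The average log2 change of Duxf3 was 2.56 ± 0.72 (edgeR adjusted p 0.0193), and no single line passed (adjusted p 0.121 to 0.750). The fitted average includes iFoxG1, whose 0 h library had 0 counts. The pooled-count ratio there was at least 4.42, and in the other lines it was 4.81 in iFoxC1 (counting interval 1.52 to 24.4), 2.86 in iFoxA1, 2.45 in iFoxP3 and 1.97 in iFoxL2. Without the iFoxG1 0 h library the average over the 4 other lines was 1.42 (adjusted p 0.122). The transcript shares 1031 of its 31-base words with AW822073, so some reads may belong to that gene.

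Zfp352 lay beside the threshold. Its average log2 change was 2.72 ± 0.96, with an edgeR adjusted p just above the threshold of 0.05, while DESeq2 gave 2.53 (0.0166). It had 0.644 and 1.21 CPM in iFoxC1 at 24 h, against 0.142 CPM at 0 h, and 0.453 and 0.697 CPM in iFoxG1, against 0 CPM. In iFoxL2 there were 2.95 and 0.689 CPM, against 0.649 CPM, and in iFoxP3 0.677 and 0.580 CPM, against 0.149 CPM. These 4 lines were above 0 h in each 24 h library. The pooled-count ratio was 7.02 in iFoxC1 (counting interval 2.28 to 35.1), at least 3.94 in iFoxG1, 2.39 in iFoxL2 and 4.15 in iFoxP3 (1.301 to 21.1). With the 2 libraries that stand apart left out, the lines differed at 24 h (adjusted p 0.00762, against 0.411 with all libraries). iFoxA1 was again split, with 0 CPM in replicates 1 and 2 and 0.503 CPM in replicate 3 at 24 h, against 0.0478 and 0.193 CPM at 0 h.

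On the length-corrected scale the families are ordered clearly. The Zscan4 sum had a median of 30.6 TPM at 24 h and 16.6 TPM at 0 h, far above the Tcstv sum at 1.78 and 0.941 TPM, Duxf3 at 0.351 and 0.123 TPM, and Zfp352 at 0.368 and 0.0905 TPM. Duxf3 and Zfp352 lay close together and their ranges over libraries overlapped at both times. Across the 17 libraries the log2 CPM of the Zscan4 and Tcstv sums had a Pearson r of 0.87, and that of Tcstv and Zfp352 likewise 0.87. Within the 11 libraries at 24 h these were 0.88 and 0.90. Duxf3 was less close to Zscan4, at 0.44 over all libraries and 0.24 within 24 h. The Pramel pair had r of -0.24 with Zscan4 and -0.61 with Duxf3, and the last was -0.13 within 24 h. The libraries share lines and depth, so these values are descriptions.

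By the same measure, the named genes nearest to the Pramel pair were Tnip2 (r 0.93), Adrb3 (0.93) and Mfsd2b (0.92). Tnip2 averaged 5.64 CPM at 24 h and 14.8 CPM at 0 h, and Adrb3, a beta-adrenergic receptor, 13.8 and 29.3 CPM. Nearest to Zscan4 were Skiv2l (0.87), Col9a3 (0.83) and BC080695 (0.82). Zfp575 (0.89), Zscan4d (0.89) and BC147527 (0.88) were nearest to Tcstv. For Zfp352 these were Sp110 (0.93), BC147527 (0.92) and Nrsn1 (0.90). For Duxf3 they were Pde2a (0.87), St3gal3 (0.82) and Zer1 (0.82). BC080695, BC147527 and Sp110 are on the list of further 2-cell-like genes described next, and Zscan4d is itself a member.

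A list of 52 2-cell-like genes beyond the members includes Zscan4a, Zscan4b and Zscan4e, which are also in the Zscan4 sum. Of these 52, 39 could be tested, and 9 were higher and 2 lower in the average change (21.7% and 16.1% over all genes). The median log2 change was 1.15, against 0.04 over all genes. By line the median was 1.81 in iFoxC1, 1.03 in iFoxG1 and 0.77 in iFoxP3, but 0.02 in iFoxA1 and 0.04 in iFoxL2. Several of these genes had libraries at 0 counts, where the fitted fold depends on how 0 is treated. Within lines few passed (4.23 to 10.8% over all genes, as given for each line above), with 1 higher and 2 lower in iFoxA1, 1 higher in iFoxC1, 1 higher and 1 lower in each of iFoxG1 and iFoxP3, and 0 in iFoxL2. The 4 with the smallest adjusted p ran in both directions. E330020D12Rik averaged 1.14 ± 0.703 CPM at 24 h and 2.43 ± 1.43 CPM at 0 h (SD, 11 and 6 libraries), a log2 change of -1.15 ± 0.17 (edgeR adjusted p 0.000794). Trim43b, of the tripartite motif family, was at 1.76 ± 0.692 CPM against 5.32 ± 1.80 CPM (-1.52 ± 0.23, 0.000941). BC061212 rose by 3.34 ± 0.52 (0.000992), at 0.714 against 0.250 CPM, and Usp17le, which encodes a deubiquitinase, by 2.11 ± 0.42 (0.00386), at 1.93 ± 0.868 against 0.679 ± 0.669 CPM. By line, BC061212 changed by 6.91 in iFoxG1, 6.46 in iFoxP3, 2.57 in iFoxA1, 1.43 in iFoxC1 and -0.67 in iFoxL2. It had libraries at 0 counts, so its fitted fold depends on how counts of 0 are treated. The Usp17l and Trim43 groups also have close copies, which limits values of single genes.

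Of 12 other genes with Pramel or Pramef symbols, 8 were tested, 1 was higher and 3 lower (37.9% of all genes passed, 21.7% higher and 16.1% lower), with a median of -0.73. Pramef8 averaged 24.5 ± 10.7 CPM at 24 h and 45.8 ± 6.73 CPM at 0 h (-0.98 ± 0.14, adjusted p 0.000745), and was also higher in iFoxC1 than in the other lines at 24 h, by 1.16 ± 0.21 (0.0135). Pramel4 had 3.80 ± 1.66 against 11.4 ± 2.93 CPM (-1.61 ± 0.38, 0.00883) and Pramef17 0.545 against 3.69 CPM (-2.93 ± 0.59, 0.00399). Pramef25 was the 1 that rose, at 0.435 against 0.103 CPM (3.53 ± 0.96, 0.0167). By line its change ran from 0.83 in iFoxL2 to 6.44 in iFoxP3, and no single line passed. It had libraries at 0 counts, so its fitted fold, too, depends on how these are treated.

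Several genes of LIF and STAT3 signalling fell in every line, iFoxC1 included. Of 13 tested, 5 were lower and 1 higher on average, and 3 to 5 were lower and 0 higher within each line. Over all genes 16.1% were lower on average, and 1.93 to 4.14% within a line. Socs3, the STAT3-induced feedback inhibitor, averaged 15.2 ± 4.29 CPM at 24 h and 96.0 ± 4.88 CPM at 0 h (log2 change -2.73 ± 0.14, edgeR adjusted p 1.95e-06). Stat3 itself, the factor that LIF activates, averaged 32.2 ± 5.08 and 91.2 ± 8.76 CPM (-1.47 ± 0.10, 1.06e-05). In iFoxC1, Socs3 changed by -2.80 ± 0.32 (0.0015) and Stat3 by -1.55 ± 0.23 (0.00506), and neither differed among lines in its change beyond the threshold (0.602 and 0.757). The Pramel7 change in iFoxC1 was 0.37 ± 0.73, and it did not differ among lines beyond the threshold either (edgeR F test, 0.181). The part of LIF and STAT3 in the Pramel7 values was not tested. Bcl3, a further STAT3 target, averaged 4.31 ± 2.31 against 28.6 ± 3.45 CPM (-2.78 ± 0.12, 1.05e-06), and Sgk1, a kinase gene, changed by -0.80 ± 0.09 (0.00022).

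Among PRAMEL7 partners and DNA methylation genes, 4 of 8 were higher and 2 lower (21.7% and 16.1% over all genes), with a median of 0.15. The de novo methyltransferase genes rose, Dnmt3a by 1.33 ± 0.10 (adjusted p 1.85e-05) and Dnmt3b by 1.47 ± 0.11 (2.2e-05), at 636 ± 269 against 245 ± 76.8 CPM for Dnmt3b. Their cofactor gene Dnmt3l rose by 1.305 ± 0.15 (0.000192), and Cul2 changed by -0.55 ± 0.07 (0.000321). Uhrf1, whose protein PRAMEL7 targets, was at 0.05 ± 0.11 (0.727). The Dnmt3b change differed among the lines (edgeR F test, adjusted p 0.0245), as the 1 of these 8 genes to pass, where 1% of all genes passed. It was 2.95 ± 0.29 in iFoxC1, with 1 library at 0 h, and 0.28 ± 0.19 in iFoxA1. At 24 h itself iFoxC1 did not differ from the mean of the other lines beyond the threshold (0.25 ± 0.16, edgeR adjusted p 0.5). The iFoxA1 change includes 24 h replicate 3, and no value without it is given.

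Known regulators of the 2-cell-like state were called in both directions, and the shares over all genes (21.7% higher, 16.1% lower) apply here as well. Of 7 activators, 2 were higher and 2 lower (median -0.19): Trp53, which encodes p53, by 0.57 ± 0.13 (adjusted p 0.00775), Nelfa by 0.46 ± 0.13 (0.0186), the chromatin remodeller gene Smarca5 by -0.36 ± 0.07 (0.00324) and Usp7 by -0.22 ± 0.06 (0.0193). Dppa2 and Dppa4, whose proteins bind and activate the Dux locus in mouse ES cells, did not pass (-0.22, 0.306, and 0.13, 0.14). Of 21 repressors, 9 were higher and 3 lower (median 0.16). The 4 with the smallest adjusted p were E2f6 (0.76 ± 0.08, 0.000143), Ehmt1 (0.50 ± 0.05, 0.000145), Pcgf6 (-0.36 ± 0.05, 0.000664) and L3mbtl2 (0.82 ± 0.14, 0.00159). E2F6, PCGF6 and L3MBTL2 are subunits of a Polycomb repressive complex, and EHMT1 is a histone H3 lysine methyltransferase. Zfp42, a repressor also on the ES cell marker list, changed most in size of the 28, a gene named after its value was seen (307 ± 123 CPM at 24 h against 735 ± 171 CPM at 0 h, log2 change -1.27 ± 0.28, adjusted p 0.00647).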

How the data were processed

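Polyadenylated RNA (1 µg of total RNA) was made into strand-specific libraries, per the labels' protocols. The authors deposited, for each transcript, unnormalised estimated counts from Salmon and TPM, a value scaled to transcript length and library total. The submitters' processing notes list Salmon 1.4.0, DESeq2 1.30.1 and mm10. Which annotation the authors used is not given in these sources. Of 137271 transcripts, 137225 matched GENCODE M21 by identifier, and the 46 others, at most 0.0133% of any library's counts, were left out.

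Estimated counts were summed per gene symbol, and per family in a second table, and rounded to whole numbers. After edgeR's filterByExpr by group 19796 genes were tested (19786 with family sums). All 9 members passed this filter. TMM-scaled counts were fitted by quasi-likelihood in R 4.3.3 with edgeR 4.0.16, in 1 model of 10 groups with 7 residual degrees of freedom. Lone 0 h libraries were assumed to vary like the rest. CPM uses TMM-adjusted totals, and SE comes from the F statistic. The labels do not say that replicates were separate cultures, so p-values refer to the spread among the libraries only. Contrasts were the 24 h minus 0 h change per line and averaged over lines, the difference among the changes, and the lines at each time. A line with 0 counts was set to a floor of 3 counts, and 1 to 3 counts carry a 95% exact interval, both for counting error only.

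Members, lists and contrasts were chosen with earlier results of these data known. Named genes are the members and their copies, up to 4 genes per list by adjusted p, and the 3 named protein-coding genes most like each profile by Pearson r of log2 CPM. Planned identity between proteins was replaced by identity between coding sequences of the M21 annotation. Sequences upstream of starts are from RefSeq (GRCm38.p6). The fit was tested on simulated data for the average change with 19030 genes, of which 200 were changed. It recovered 58% at a log2 change of 1 and 97% at 2, and 8.28% of its calls were false. The changed genes all had a mean of at least 1 CPM, and no difference among lines or library sets was simulated. Tcstv1, Tcstv3, Duxf3 and Zfp352 averaged less than 1 CPM, so these recovery shares do not cover them.

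Replicate numbers were not used to pair libraries, as the labels do not support them as a pairing. Deviations of same-numbered libraries of different groups had r from -0.566 to 0.757 over 30 pairs, 16 of them over 0.1. In groups of 2 libraries the deviations mirror each other, so their pairs repeat the same r under both numbers. Outside iFoxA1 the number at 24 h also coincides with the library set. This check, and the count of best correlations given below, cannot show whether the numbers pair libraries. Alternatives were DESeq2 1.42.0, its size factors, no filter, limma 3.58.1 on log2(TPM + 1), the library set as a term, the first library set only, a replicate block, other family definitions, and leaving out each library.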

Additional observations from a re-analysis of the deposited data

Results flagged for a closer look

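The fall of Pramel6 between 0 h and 24 h differed among the 5 lines by the test of the difference itself (edgeR adjusted p 0.0322). Its change in iFoxC1 exceeded the mean change of the 4 other lines by 4.22 on the log2 scale, at 2.28 and 2.09 CPM at 24 h against 5.16 CPM at 0 h. No group had more than 3 libraries, so single libraries were not screened as outliers by a rule.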

How the results depend on the processing

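The average changes of the Pramel pair, Pramel6 and Pramel7 passed under every alternative run. Leaving out 1 library at a time moved the pair from -4.24 to -2.83, the Zscan4 sum from 0.57 to 1.21, Duxf3 from 1.42 to 3.61, Zfp352 from 1.68 to 3.03 and the Tcstv sum from -0.33 to 1.09 (log2). It moved the members called on average from 3 to 5, within lines from 5 to 9, for the difference among the changes from 0 to 1, among lines at 24 h from 2 to 5 (5 without iFoxA1 24 h replicate 3) and at 0 h from 0 to 0. The Pramel6 difference among lines was lost without any of 11 of the 17 libraries (adjusted p 0.0122 to 0.154 over all 17) and with limma on log2(TPM + 1) (0.216). Its iFoxC1 change against the other lines stayed at 3.68 to 4.43 but was lost without 5 libraries (up to 0.0995) and with limma (1.87, 0.115). The cause was not tested.

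With the first library set only, calls were 23 within lines, 6 for the difference among the changes, 7 among lines at 24 h and 6 at 0 h. Its spread then rests on iFoxA1 alone. Leaving out iFoxA1 24 h replicate 3 and iFoxL2 24 h replicate 2, an alternative chosen after seeing the data, gave 17, 5, 6 and 1. The difference among the changes had 2 members with DESeq2, 2 with the library set as a term and 0 with limma. Counts of members under an alternative stand in this section without the share of all genes called by it. They therefore do not set the members apart from other genes. The Zscan4 average was 0.52 (adjusted p 1.46e-05) with the first set only and 0.62 (0.0017) without the 2 libraries. Zfp352 passed with DESeq2 (2.53) and with no filter (2.76).

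The Tcstv average changed sign, never past the threshold, with the first set only (-0.28), without the 2 libraries (-0.22) and without iFoxA1 24 h replicate 3. So did Tcstv3 in the same 3 settings (-0.23, -0.23 and -0.40, and up to 1.00 without other libraries). In iFoxA1 the Zscan4 change was -1.30, -1.29 and -1.31 in those settings, all past the threshold (up to 0.61 without other libraries), -0.34 with the library set as a term and -0.39 with limma. The Zfp352 change in iFoxA1, whose 24 h replicates 1 and 2 had 0 counts, was -4.34, -4.52 and -4.55 in those 3 settings and -0.0066 with limma, and -0.04 without iFoxA1 0 h replicate 1 (up to 1.87 without others), none past the threshold. The Tcstv change in iFoxA1 ran from -6.70 (without 24 h replicate 3) to 0.13 (without replicate 1), and that in iFoxL2 from -0.57 (without 24 h replicate 1) to 0.80 (without replicate 2). The Pramel sum in iFoxC1 was 0.30 with the library set as a term. Of 1671 recomputations of other values, 1510 kept direction and side of the threshold, 60 lost a call, 80 gained one and 21 changed sign.

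With the replicate block, which the labels do not support as a pairing (9 of 13 libraries correlated best with a library of the same number), 3 members were called on average, 8 within lines, 1 for the difference among the changes, 3 among lines at 24 h and 0 at 0 h. The block gave 0.52 for Zscan4 (adjusted p 0.0238), -0.24 for Tcstv, -0.18 for Tcstv3, 2.25 for Duxf3, -3.21 for the Pramel sum and 1.69 for Zfp352. In single lines the block gave -1.32 (Zscan4) and -4.59 (Zfp352) in iFoxA1 and 0.14 (Pramel sum) in iFoxC1. Depth limits Tcstv1, Tcstv3, Duxf3 and Zfp352 most, at few counts per library.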

Other observations

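Within 200 kb on each side of Pramel6 and Pramel7, 30 genes are annotated and 6 could be tested. By edgeR 1 of them was higher on average and 3 were lower (21.7% and 16.1% over all genes). The higher 1 was the olfactory receptor gene Olfr1122 (log2 change 1.44 ± 0.32, adjusted p 0.00643). Of the lower ones, Olfr153, an olfactory receptor gene 20.9 kb beyond the end of Pramel6, changed most (-4.44 ± 0.72, 0.00256), with 0 to 5 counts per library at 24 h and 3 to 13 at 0 h. Unlike Pramel7, it was low at 24 h in iFoxC1 as well, with 1 and 1 counts, against 12 at 0 h. Olfr1124 (-0.86 ± 0.22, 0.014) and Gm13736 (-0.76 ± 0.21, 0.0197) were the others. These genes were chosen after their values were seen, and a pattern of the region was not tested.

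Some transcript forms followed the library set. The 1722-base form of Zscan4e had 64.9 to 174 estimated counts in all 5 libraries of the second set, and 0 in 11 of 12 libraries of the first, with 9.49 in the other. The 1745-base form of the same gene had 38.2 to 140 counts in the second set and 17.5 to 96.3 in the first. A 1779-base form of Zscan4b reached 86.7 counts in the second set and was at 0 in 11 of 12 first-set libraries. Summed over its forms, Zscan4e differed between the sets by 1.09 ± 0.39 (edgeR adjusted p 0.0683). These forms, too, were chosen after their values were seen, and the cause was not tested.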
